A study of Caenorhabditis elegans with 6 samples.

Results

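Open chromatin was examined at 7 meiotic and germline genes of Caenorhabditis elegans, namely syp-2, syp-3, syp-4, spo-11, rad-51, glh-1 and nos-3, of 19971 protein-coding genes in all. Peaks were assigned to a gene when the summit lay inside its span or nearer to one of its ends than to an end of any other protein-coding gene. These genes were chosen because each carried a peak, so their presence in the lists is a description and not a finding. The peaks came from ATAC-seq, in which the transposase Tn5 cuts and tags accessible DNA.

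Neuronal nuclei were sorted as positive for GFP and for the DNA stain DAPI, in 3 samples, and total nuclei on DAPI alone, also in 3 samples, with 50000 nuclei in each. All nuclei came from the strain OH11061 with the transgene otIs381, grown at 20 °C on OP50 bacteria as populations of mixed stage that were mainly larvae. This transgene puts GFP into neuronal nuclei from a promoter of the pan-neuronal gene ric-19. Total nuclei include the neuronal ones. The deposited data are 1 peak list per group on build ce11, with 2313 peaks for neuronal and 2683 for total nuclei. They hold no value per sample, so no spread between replicates could be given and no difference below was tested between conditions.

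In the nematode germline, homologous chromosomes pair in meiotic prophase and are held together by the synaptonemal complex, a protein zipper whose central region contains SYP proteins. Recombination begins with DNA breaks made by the topoisomerase-like enzyme SPO-11 and goes on with strand exchange by the RAD-51 recombinase. Germ cells also carry P granules, cytoplasmic bodies of RNA and protein around the nucleus, in which the Vasa-like helicase GLH-1 sits, and they rely on RNA-binding proteins such as the Nanos relative NOS-3. Neurons do not undergo meiosis, but RAD-51 also repairs DNA in dividing somatic cells.

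Of the 7 genes, 5 (syp-3, syp-4, spo-11, rad-51 and nos-3) had a peak in both lists, glh-1 had one in the neuronal list alone and syp-2 in the total list alone. Each list thus held 6 of the 7 genes with a single peak at each. Over all protein-coding genes, 11.3% had a peak in the neuronal list, 13% in the total list and 13.5% in either, and the 7 genes were picked from among those. Of the genes with any peak, 3.71% had it in the neuronal list alone and 16.2% in the total list alone. Since only sites that passed the reproducibility filter are listed, closed chromatin cannot be read from a missing peak.

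At all 7 genes the summit lay within 523 bp of an end of the gene, and at 6 of them it fell between genes. The exception was glh-1, whose summit was 176 bp inside the gene. The other summits lay 77 bp (syp-2), 96 bp (nos-3), 200 bp (syp-4), 386 bp (syp-3), 471 bp (rad-51) and 523 bp (spo-11) outside. Among all peaks, 72.6% of neuronal and 72.9% of total summits lay outside protein-coding genes. Strand was not used here, so which of these ends are promoters was not determined.

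A neighbouring gene was nearly as close at most of these sites. A second gene end lay within 1000 bp of the summit at 5 of 6 neuronal and 5 of 6 total peaks of these genes, mostly the same sites. Among all peaks this held for 32.4% of neuronal and 34.7% of total peaks. The sets are unlike, since all summits of the 7 genes lay within 523 bp of a gene end. Of all summits, 64.9% in the neuronal and 66.2% in the total list had even the nearest end within 1000 bp. The neighbour was 46 bp farther from the summit than nos-3 was, 84 bp farther than syp-3, 90 bp farther than syp-2, 116 bp farther than spo-11, 152 bp farther than syp-4 and 338 bp farther than glh-1. Only at rad-51, of the 7, was the next gene far off, with ebax-1 2240 bp from the summit. ATAC-seq cannot tell which of 2 flanking genes a shared site serves, and at 6 of the 7 the peak lies beside both.

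**Figure D1:**
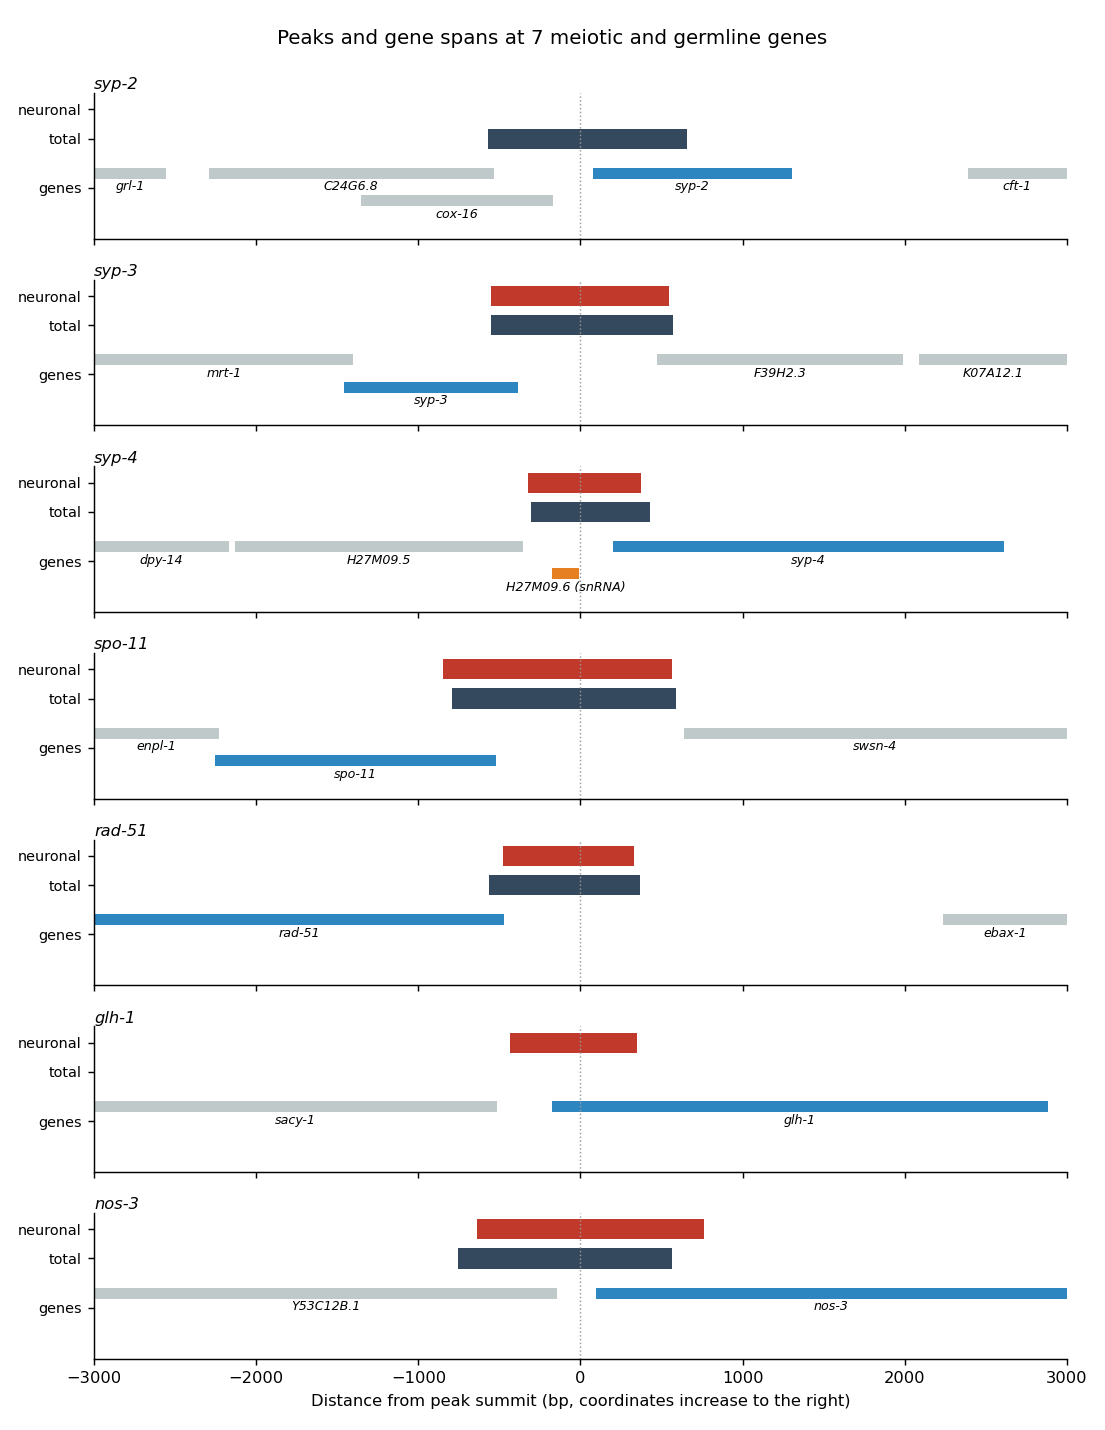
Peaks of the neuronal list (red) above those of the total list (dark grey), with the gene itself (blue), other protein-coding genes (light grey) and an snRNA gene (orange), by distance in bp from the peak summit. The summit lies outside the blue gene in every panel but that of glh-1, and the syp-2 and glh-1 panels each have a peak of 1 list only.

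The synaptonemal complex genes syp-3 and syp-4 had peaks in both lists, with slightly higher fold enrichment in the neuronal list. Of all peaks that could be paired between the lists, 16.4% had a higher fold enrichment in the neuronal list. Fold enrichment is the authors' ratio of the signal at the summit to the local background. At syp-3 (CELE_F39H2.4, chromosome I from 8663048 to 8664120) the fold was 11.5 in the neuronal list and 10.8 in the total list. The peak ran from 8663955 to 8665049 (1095 bp) in the neuronal list and from 8663957 to 8665074 (1118 bp) in the total list, with the same summit at 8664506. It filled the whole 855 bp between syp-3 and F39H2.3 and reached 166 bp into syp-3 in the neuronal list and 164 bp in the total list. The other end of syp-3 overlaps the telomere maintenance gene mrt-1 by 57 bp and carried no peak.

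At syp-4 (CELE_H27M09.3, chromosome I from 6847511 to 6849923) stood the highest neuronal fold of the 7 genes, 16.6, against 16.1 in the total list. These values lay at percentile 92.0 of the neuronal and percentile 88.5 of the total list. The peak was also the narrowest of the 7 genes in either list, from 6846987 to 6847686 (700 bp) in the neuronal list and from 6847005 to 6847739 (735 bp) in the total list. The region between syp-4 and H27M09.5 is not empty. It holds the snRNA gene H27M09.6, at 6847137 to 6847303 and 167 bp long, which ended 8 bp from the summit of both lists, inside a slightly longer ncRNA gene, H27M09.7. A small nuclear RNA gene lay in 2.16% of neuronal and 1.75% of total peaks. At this site the accessibility of syp-4 and of the snRNA gene cannot be told apart.

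The third synaptonemal complex gene, syp-2 (CELE_C24G6.1, chromosome V from 5536487 to 5537717), had a peak in the total list alone. It ran from 5535839 to 5537067, with a fold of 9.09 and the top reproducibility score of 1000. That score was also held by 90.0% of the total list and by 56.3% of the peaks in the total list alone. At 1229 bp the syp-2 peak was wider than 81.9% of the peaks in its list and covered all 243 bp between syp-2 and cox-16, a gene of cytochrome c oxidase assembly. Of its width, 581 bp lay in syp-2 and 405 bp in cox-16. The lower edge of the peak also reached into the gene C24G6.8, which overlaps cox-16. The nearest peaks of the neuronal list lay 31184 bp below and 44278 bp above this summit, near nhr-47 and klc-2.

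The recombination genes spo-11 and rad-51, which act in sequence in making and repairing meiotic breaks, both had a lower fold in the neuronal list. So had 83.6% of all peaks that could be paired between the lists. At spo-11 (CELE_T05E11.4, chromosome IV from 11123133 to 11124862) the fold was 9.39 in the neuronal list and 10.6 in the total list. The peak was the widest of the 7 genes in both lists, with 1409 bp from 11124538 to 11125946 in the neuronal list and 1387 bp from 11124590 to 11125976 in the total list. It stopped short of the neighbour swsn-4, which encodes the ATPase of the SWI/SNF chromatin remodeller, with a summit 639 bp from that gene. A further peak stood 6125 bp below in the neuronal list and 6129 bp below in the total list, near the endoplasmin gene enpl-1, with folds of 13.8 and 14.5 in those lists. The gene enpl-1 overlaps the far end of spo-11 by 23 bp.

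At rad-51 (CELE_Y43C5A.6, chromosome IV from 10281634 to 10284244) the fold was 14.5 in the neuronal list and 16.4 in the total list, the highest of the 7 genes in the total list. The peak was 807 bp wide in the neuronal list (10284236 to 10285042) and 934 bp in the total list (10284150 to 10285083), the largest change in width among the 5 genes with a shared peak. Nearly all of it lay between genes, 98.9% in the neuronal list and 89.8% in the total list. It reached only 9 bp into rad-51 in the neuronal list and 95 bp in the total list. No other peak of either list had its summit within 20000 bp.

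The P granule helicase gene glh-1 (CELE_T21G5.3, chromosome I from 6854478 to 6857536) was the only one of the 7 with a peak in the neuronal list alone, and it had the lowest fold of the set. Its fold was 6.46, at percentile 6.03 of the neuronal list. The peak ran from 6854222 to 6855001 (780 bp), of which 524 bp lay in glh-1 and 256 bp in the 337 bp that separate it from sacy-1, another DEAD-box helicase gene. Its reproducibility score was 474, where the other 11 peaks of these genes all had 1000. On the usual scaling of such scores this is an irreproducible discovery rate of 0.0722, inside the 0.1 limit named for the lists.

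The peaks of syp-4 and glh-1 are close neighbours, with summits 7343 bp apart and the genes rpb-5 and sacy-1 between the gene spans. In the total list the syp-4 peak was present and the next peak above it lay 34803 bp away, near asd-2.

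The Nanos family gene nos-3 (CELE_Y53C12B.3, chromosome II from 9746316 to 9750462), which acts in the switch from sperm to oocytes, had a fold of 9.03 in the neuronal list and 9.92 in the total list. The peak was 1403 bp wide in the neuronal list (9745581 to 9746983) and 1323 bp in the total list (9745465 to 9746787). It spanned the 237 bp to Y53C12B.1 and reached into both genes. In the neuronal list it covered 668 bp of nos-3 and 498 bp of the neighbour, and in the total list 472 bp of nos-3 and 614 bp of the neighbour. The summit was the same, but the borders moved by 116 bp at the lower and 196 bp at the upper side.

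**Figure D2:**
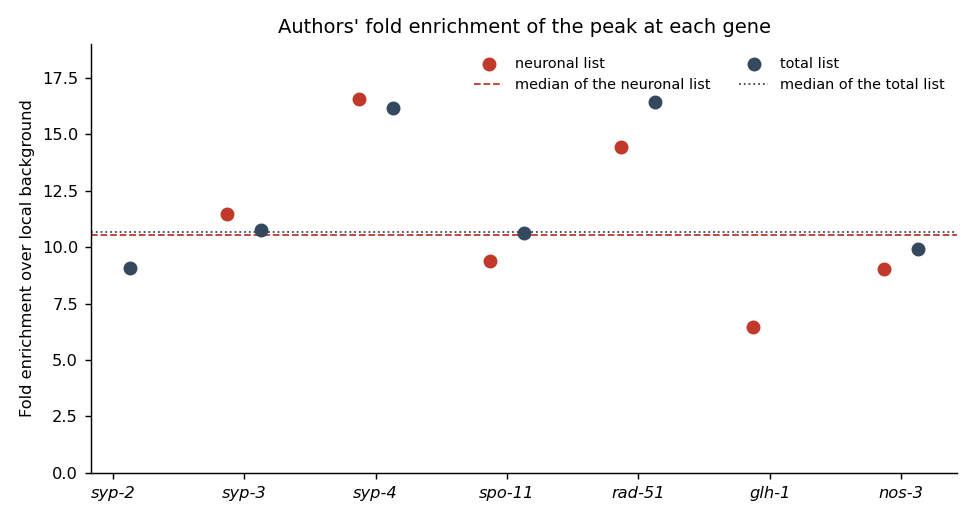
Authors' fold enrichment over local background (y axis) of the peak at each gene in the neuronal (red) and total (dark grey) lists, with the median of each list as a line. The peaks of syp-4 and rad-51 stand well above both medians, and glh-1, at 6.46, is the lowest.

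As a group the peaks were ordinary in height and rather wide. Folds ranged from 6.46 to 16.6 in the neuronal list, with a median of 10.4 over 6 peaks against 10.5 over all 2313. In the total list they ranged from 9.09 to 16.4, with a median of 10.7 over 6 peaks against 10.7 over all 2683. The median width was 951 bp in the neuronal list, against 799 bp for all its peaks. In the total list it was 1174 bp, against 823 bp for all. The 4 widest sites, spo-11, nos-3, syp-2 and syp-3, had folds near or below the list medians in the total list, while syp-4 and rad-51 were narrower and higher.

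**Figure D3:**
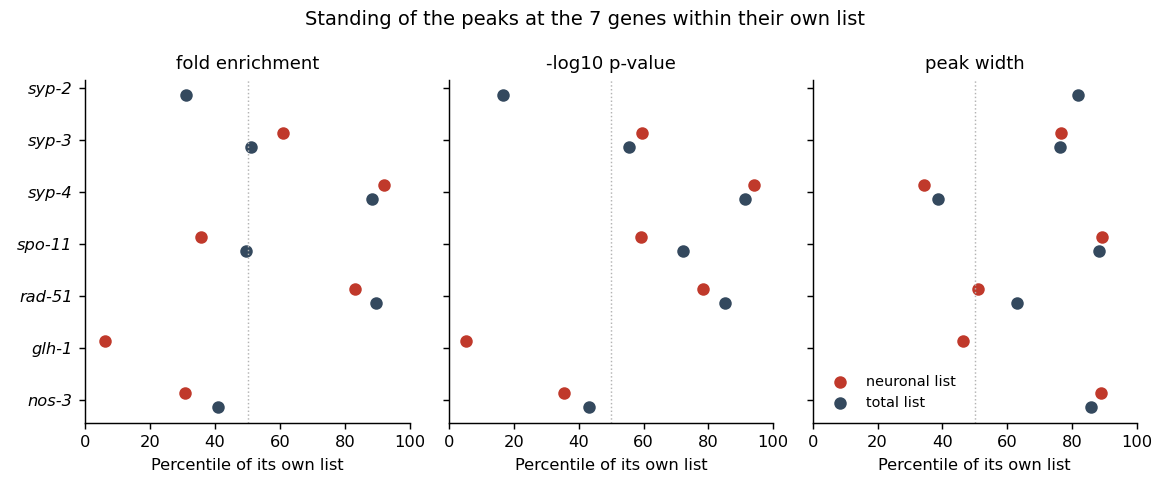
Percentile of each peak within its own list (x axis, 100 being the highest) for fold enrichment, −log10 p-value and width, with the neuronal list in red above the total list in dark grey. The glh-1 peak lies below the 10th percentile by fold and by p-value, and syp-4 lies near the 90th in both lists but below the 50th by width.

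The 5 shared sites coincided closely, and their fold ratios fell on both sides of the typical ratio. All 5 had identical summits in both lists, as had 52.5% of the 2199 peaks that could be paired uniquely between the lists. The overlap took 97.6% of the combined extent at syp-3, 94.3% at spo-11, 90.6% at syp-4, 86.4% at rad-51 and 79.5% at nos-3, against a median of 93.7% over all pairs. By width, spo-11 and nos-3 were wider in the neuronal list and syp-3, syp-4 and rad-51 narrower. Over all pairs 48.7% were wider and 49% narrower.

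The fold was lower in the neuronal list at 3 of the 5 shared genes and higher at 2, while 83.6% of all paired peaks were lower in the neuronal list. The log2 ratio of fold, neuronal over total, was -0.18 at rad-51, -0.18 at spo-11, -0.13 at nos-3, 0.04 at syp-4 and 0.09 at syp-3. The median of the 5 was -0.13, against -0.09 over all pairs, whose SD was 0.09. Of the 5, only syp-3, at percentile 98.1 of all pairs, lay outside the range from the 5th to the 95th percentile, which ran from -0.24 to 0.06, and syp-4 stood at percentile 91.7. The rad-51, spo-11 and nos-3 ratios lay at percentiles 13.5, 15.1 and 28.7. These positions describe 2 lists, and peaks are not replicates.

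**Figure D4:**
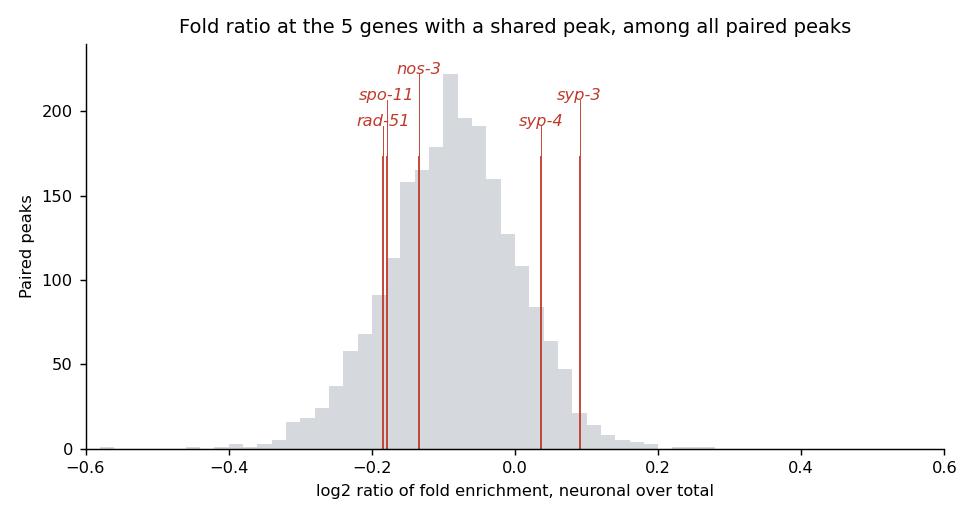
Histogram of the log2 ratio of fold enrichment, neuronal over total (x axis), over the 2199 paired peaks (y axis, number of pairs), with red lines at the 5 genes that have a shared peak. The lines of rad-51, spo-11 and nos-3 lie left of the bulk's centre at -0.09, and those of syp-4 and syp-3 lie right of 0.

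The reads behind each summit were recovered from fold and p-value, and they give the counting error of each value. At syp-4 the pileup was 3924 reads in the neuronal list (95% exact Poisson interval 3802 to 4049) and 2344 in the total list (2250 to 2441). At rad-51 it was 2483 (2386 to 2583) in the neuronal list and 1828 (1745 to 1914) in the total list, and at spo-11 2307 (2214 to 2403) in the neuronal list and 1688 (1608 to 1770) in the total list. At syp-3 it was 2047 (1959 to 2138) in the neuronal list and 1271 (1202 to 1343) in the total list, and at nos-3 1685 (1606 to 1767) in the neuronal list and 1108 (1044 to 1175) in the total list. All 5 were deeper in the neuronal list, as was the typical pair, with a median ratio of 1.48.

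Relative to that median, the log2 pileup ratio was 0.18 at syp-4 (95% exact binomial interval 0.11 to 0.25), 0.12 at syp-3 (0.02 to 0.23) and 0.04 at nos-3 (-0.07 to 0.15). It was -0.11 at spo-11 (-0.20 to -0.02) and -0.12 at rad-51 (-0.21 to -0.03). The SD over all pairs was 0.113. The spo-11 (-0.113), rad-51 (-0.122) and syp-3 (0.124) values lay only about that far out, syp-4 farther and nos-3 less far. The share of all pairs that lie beyond 1 SD is not given here. At nos-3 the direction differed from that of the fold. Its local background was 186 reads in the neuronal list and 111 in the total list, a ratio of 1.68 against a median of 1.58 over all pairs. The intervals cover counting error only, and reads from PCR copies of 1 molecule are not independent.

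The glh-1 and syp-2 peaks, each in 1 list alone, stood in the weaker part of their lists, where such peaks are common. The glh-1 summit had 1364 reads (1293 to 1438) over a local background of 210 in the neuronal list. By p-value it was among the weakest 10% of that list, of which 81 of 231 peaks (35.1%) had no overlap in the total list, against 4.11% of all neuronal peaks. The syp-2 summit had 821 reads (766 to 879) over a background of 89.4 in the total list. By p-value it was between the 10th and the 20th percentile of that list, where 139 of 269 peaks (51.7%) had no overlap in the neuronal list, against 17.4% of all total peaks. When each list was cut by p-value into 10 equal parts, the parts with the syp-3, syp-4, spo-11 and rad-51 peaks held 0 peaks without an overlap in the other list. Among the 95 peaks of the neuronal list alone, glh-1 ranked 63rd by fold, and among the 467 of the total list alone syp-2 ranked 140th. Fewer nuclei with an open site and less opening per nucleus cannot be told apart in these sorted pools.

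Of the 141 matched genes of 10 lists by role in meiosis and the germline, the 7 included, 17 (12.1%) carried a peak in either list, against 13.5% of all protein-coding genes. A peak was present at 14 (9.93%) in the neuronal list and at 16 (11.3%) in the total list, against 11.3% and 13% of all protein-coding genes in these lists. Without the 7 genes, which were picked for having peaks, 8 of 134 (5.97%) and 10 of 134 (7.46%) had one in these lists. With only summits inside the gene span counted, the shares of the 141 lay slightly above those of all genes, on few genes. They were 6 genes (4.26%) against 2.93% in the neuronal list and 5 genes (3.55%) against 3.33% in the total list. The 6 include glh-1, which was picked for its peak. Without the 7 genes, 5 of 134 (3.73%) had such a peak in each list. These shares were not tested.

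Break formation genes had a peak at 3 of 8 in both lists, and break processing and strand exchange genes at 4 of 11. Without spo-11 and rad-51, which were picked for having a peak, these counts were 2 of 7 and 3 of 10. Of all protein-coding genes, 11.3% had a peak in the neuronal list and 13% in the total list. Neither role was tested against these shares. The rfs-1 gene, a RAD-51 paralog, had folds of 12.7 in the neuronal list and 13.4 in the total list, though its peak lay nearer to an end of fbxl-1. The brd-1 gene, which encodes the partner of BRC-1 in a ubiquitin ligase for break repair, had 11.6 in the neuronal list and 12.5 in the total list. Near him-5, needed for breaks on the X chromosome, they were 11.9 in the neuronal list and 11.6 in the total list. At him-17, a chromatin factor of meiotic breaks, they were 9.40 in the neuronal list and 10.7 in the total list. The brc-1 gene had 6.64 in the neuronal list and 8.03 in the total list, a log2 ratio of -0.27.

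For the remaining roles, the shares of all protein-coding genes to compare with are 11.3% in the neuronal list and 13% in the total list. Each role has few genes, and none was tested against these shares. In the synaptonemal complex and axis list, which includes syp-1, syp-5, syp-6, him-3 and the HORMA-domain genes htp-1, htp-2 and htp-3, the 3 of 10 genes with a peak were syp-2, syp-3 and syp-4. All 3 were picked for having a peak, and without them the count was 0 of 7 in both lists. Crossover genes had 1 of 13 in both lists, the RING finger gene zhp-3 with folds of 10.4 in the neuronal list and 10.8 in the total list. Cohesin genes had 0 of 6 in the neuronal list and 1 of 6 in the total list, wapl-1, a cohesin release factor (fold 5.99). Germ granule and small RNA genes had glh-1 of 22 in the neuronal list and meg-2 of 22 in the total list (fold 8.43), while the paralogs glh-2, glh-3 and glh-4 had none. Without glh-1, which was picked for its peak, 0 of 21 had a peak in the neuronal list and 1 of 21 in the total list. Germline RNA regulators had 2 of 37 in both lists, nos-3 and the poly(A) polymerase gene gld-2, or 1 of 36 without nos-3. Sperm genes had 1 of 10, spe-9, which encodes a sperm surface protein. The gld-2 peak lay inside that gene but nearer to klu-2, and the spe-9 peak inside that gene but nearer to C17D12.5. Neither the 12 pairing and checkpoint genes nor the 12 oocyte and eggshell genes had a peak in either list.

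**Figure D5:**
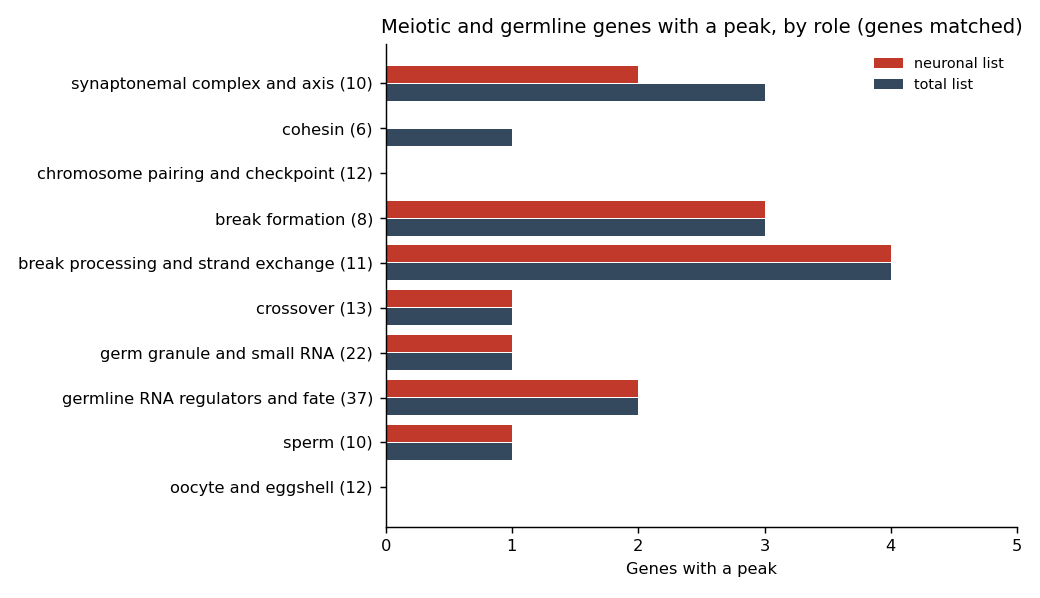
Number of genes with a peak (x axis) in the neuronal (red) and total (dark grey) lists for each of 10 roles, with the genes matched per role in brackets. The counts include the genes that were picked for having a peak, so their order is a description only. Break processing and strand exchange has the most, 4 of 11 in both lists, or 3 of 10 without the gene picked for its peak. Pairing and oocyte genes have none. Of all protein-coding genes, 11.3% had a peak in the neuronal list and 13% in the total list.

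Of the 8 other pathway genes with a peak in both lists, 7 had a lower fold in the neuronal list and 1, him-5, a higher one. Over all paired peaks, 83.6% were lower in the neuronal list. Their log2 fold ratios ran from -0.27 to 0.04 with a median of -0.10, against -0.09 over all pairs. The summit lay inside the gene at 5 of these 8 and within 1000 bp of one of its ends at 4 of the 8. Among all peaks, 72.6% of neuronal and 72.9% of total summits lay outside protein-coding genes.

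None of the 7 genes lies on the X chromosome, where 20.4% of neuronal and 19.1% of total peaks were found. The members of the 10 lists are scarce there as well, with 4 of 141 (2.84%) against 13.7% of all protein-coding genes, and 1 of these 4, meg-2, had a peak. On chromosome I, which has 14.4% of all genes, lie 3 of the 7 genes and 43 of the 141 (30.5%). That chromosome held 17.3% of neuronal and 17.9% of total peaks.

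Marker genes of other tissues were checked in the same way. A peak was present at 5 of 10 neuronal markers in the neuronal list and at 8 of 10 in the total list, and rab-3 and unc-10 had none. The snb-1, egl-3 and unc-13 genes had one in the total list alone. At the 5 in both lists, by 1 peak per gene, the fold was lower in the neuronal list, as at 83.6% of all paired peaks. Their log2 ratios ran from -0.34 at unc-31 to -0.01 at ric-19. The unc-31 gene had 4 peaks in the neuronal list and 3 in the total list, and its ratio is that of 1 site. The marker counts include ric-19 (fold 51.5 in the neuronal list and 51.9 in the total list), where reads of the transgene's promoter and of the gene's own cannot be told apart. Of 7 intestinal markers 1, elt-2, had a peak in both lists, with folds of 5.89 in the neuronal list and 5.59 in the total list. Of 5 body-wall muscle markers unc-15 had one, in the total list alone, and none of 5 hypodermal markers had any. Of all protein-coding genes, 11.3% had a peak in the neuronal list and 13% in the total list. With so few markers per tissue, these counts cannot show that a tissue is absent. The part of the marker tissues in the results at the 7 genes was not tested.

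For each of the 5 genes with a shared peak, the gene most like it was found among 2161 others by the distance in log2 fold and log2 width over both lists. These were npp-8 for syp-3 (distance 0.08), egrh-2 for syp-4 (0.08), got-2.2 for spo-11 (0.06), sucl-1 for rad-51 (0.04) and W04D2.4 for nos-3 (0.06). The sucl-1 peak, for example, had folds of 14.3 in the neuronal list and 16.1 in the total list and widths of 795 bp and 939 bp in those lists. The likeness rests on 1 list per group.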

How the data were processed

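ATAC-seq nuclei were grouped by the labels into neuronal and total, 3 samples each. Nothing in the labels says whether samples came from separate cultures. Build ce11 and the tools MACS2, Picard, bedtools 2.26, SAMtools 1.7, Bowtie2 2.2.6 and cutadapt 1.9.1 are named, with no role, per the submitters' processing notes. Not given in the sources used here are Tn5 shifting, the treatment of duplicates and of reads with several matches, and how samples were combined. Read depth per sample is unknown. The authors deposited 1 narrowPeak list per group, named for an irreproducible discovery rate of 0.1. The list names also carry the tag ppr, which the labels do not explain. Whether reproducibility was measured between the 3 samples of each group is thus unknown. Each deposited peak has a score (415 to 1000, the lowest equal to a rate of 0.1 when scaled back), a fold enrichment ratio, a −log10 p-value and a summit offset, all the authors' values, used to describe and rank peaks within a list.

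Peaks shared between lists overlapped by at least 1 bp. Gene positions came from RefSeq's table of WBcel235, the same sequence as ce11, without strand or exons. Pileup and local background were solved from fold and p-value by MACS2's default formulas, an assumption. In the neuronal list 99.8% of pileups were whole numbers to within 0.02, and in the total list 99.9%. The calculations were checked on simulated data. Python 3.11.15, numpy 2.4.6, scipy 1.17.1, pandas 2.3.3 and matplotlib 3.10.9 were used.

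The 7 genes, 10 role lists and markers were chosen with earlier results of these data known. Of 143 list genes 141 matched. Named were the 7 genes, list genes with a peak in 1 list, the 5 highest folds among the other list genes, neighbours and most similar genes. The brc-1, gld-2 and spe-9 genes and other named list members were added after their values were seen, to complete counts. The planned search of 4 motifs was not run.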

Additional observations from a re-analysis of the deposited data

How the results depend on the processing

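No paired analysis was possible because the lists hold no value per replicate, and no sample could be left out. The assignment of the 7 genes to both lists (5), the neuronal list alone (1) and the total list alone (1) was the same with summits within the gene end window (1000 bp outside to 200 bp inside), with 50% reciprocal overlap, with summits within 100 bp, with equal numbers of peaks and with the nearest gene end alone. With only summits inside the gene span counted, 0 genes were in both lists, 0 in the total list alone and 6 in neither, since 6 summits lie outside their genes. In the stronger 50% of each list 0 were in the neuronal list alone, 0 in the total list alone and 3 (syp-2, glh-1 and nos-3) in neither. With peaks of score 1000 alone, 0 were in the neuronal list alone and 1, glh-1, in neither. The nearest-end and score settings were chosen after seeing the data. The other pathway genes with a peak were 5 in the neuronal and 5 in the total list with summits inside the span, and 4 and 4 in the stronger 50% of these lists. As shares of 134 the inside counts were 3.73% in each list, against 2.93% of all genes in the neuronal and 3.33% in the total list, so the direction turned. With the gene end window it turned for all 141 genes (11.3% against 10.6% in the neuronal and 13.5% against 12.8% in the total list) but not for the 134 (7.46% and 9.70% in these lists). The median neuronal over total difference of the 5 shared genes, which is that of nos-3, turned to 1.59 percentile points by rank of p-value and to 0.041 by log2 pileup ratio. The other 4 genes kept their direction in all 4 alternatives to the fold ratio. Shares of all genes with a peak moved in 5 of 6 cases. Depth differed between the lists, with median pileups of 1920 reads in the neuronal and 1204 in the total list, and its part in missing peaks was not tested.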
